A study of Trichechus manatus latirostris with 11 samples.

Results

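The circadian clock genes examined here were CLOCK, ARNTL, NPAS2, PER2, PER3, CRY1, CRY2, NR1D1, NR1D2 and DBP, and they were chosen by their RefSeq symbol in the TriManLat1.0 manatee assembly. Of the 10 genes, 4 had a row in the deposited table: CRY1 (XM_004373794.1), CRY2 (XM_004387653.1), NR1D1 (XM_004378058.1) and DBP (XM_004381686.1). The table as a whole held 15298 rows, of which 10080 could be given a symbol, for 9641 different symbols. CLOCK, ARNTL, NPAS2, PER2, PER3 and NR1D2 had no row that could be matched to them, so they were not analysed here and no activator of the clock is described. ARNTL is listed in the gene table under its other name, BMAL1, which had no row either. Rows without a symbol were not used, so a missing match says nothing about the level of a gene.

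RNA was taken from adult Florida manatees, from the layer of white blood cells that forms between plasma and red cells when blood is spun (the buffy coat). The red tide group was 4 animals rescued from a bloom of the toxic dinoflagellate Karenia brevis and treated for red tide illness at ZooTampa (Lowry Park Zoo). Of these, 2 were sampled on arrival and 2 after a week of treatment. The 7 controls were 4 animals from Crystal River, 2 from the Indian River Lagoon in Brevard County and 1 animal recovering from pneumonia at the same zoo. Each group held 1 female, and the other animals were male. All red tide animals were sampled before any control. Blood of the red tide animals was drawn between November and March. That of the wild controls was drawn in the following December and that of the zoo control in the June after. The hour of sampling is not given in the sources used here. Clock genes follow the hour of the day and the season. In this design exposure cannot be told apart from place, handling, collection date, season and sampling hour. In bulk RNA of mixed blood cells, fewer cells of a type and less RNA per cell cannot be told apart.

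The mammalian clock is a loop of transcription and its repression. The activators CLOCK (or NPAS2) and BMAL1 bind E-box sequences and switch on the PER and CRY genes, whose proteins return to the nucleus and inhibit that activity. A second loop runs through the nuclear receptors NR1D1 and NR1D2 (REV-ERB alpha and beta), which repress BMAL1, against the ROR receptors, which activate it. DBP is a clock-driven transcription factor that binds D-box sequences and carries the rhythm to output genes. White blood cells have such a clock, and the numbers of leukocytes in blood vary over the day.

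Values are mean normalized counts, that is, counts divided by the size factor that DESeq assigns to each library to correct for depth. The table gives 1 mean over 4 libraries and 1 mean over 7 libraries for each row and no value of a single library. The columns do not name their groups. They were assigned by their weights in the overall mean, which are those of a group of 4 and a group of 7 in every row, and by the title of the table, which names red tide first. On that basis the 4-library mean would stand for red tide and the 7-library mean for the controls. The published account words its directions the other way round, calling genes with the higher 7-library mean upregulated in red tide, and the sources used here do not settle which is right. The means are therefore named by their number of libraries, and every direction below is one between these means and not between named groups of animals. Where a mean was low enough, it could be resolved into the whole reads of each library, since a read of a given library is always worth the same amount. The libraries are known by their size factor (relative depth), which ran from 0.372 to 1.73, and not by animal. Ratios are given as log2 of the 4-library over the 7-library mean, and a gene was called at least 2-fold apart on its means alone, without a test.

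All 4 clock genes lay within 2-fold between the groups. CRY1, CRY2 and NR1D1 had the higher mean in the 4-library group, by 1.54-, 1.24- and 1.48-fold, and DBP had the lower one, the 7-library mean being 1.32-fold higher. None of the 4 genes was at least 2-fold apart, against 34.3% of all 15298 rows and 21.9% of the 10225 rows with an overall mean of at least 10. The median log2 ratio of the 4 genes was 0.44, beside 0.14 over all rows. A higher 4-library than 7-library mean was found for 3 of the 4 genes and for 56.4% of all rows.

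CRY1, cryptochrome 1, is the main transcriptional inhibitor of the CLOCK and BMAL1 pair. Its mean was 518 normalized counts over the 4 libraries and 336 over the 7 libraries, a log2 ratio of 0.62. Of the rows with an overall mean of at least 10, 78.6% had a lower ratio. Both means were too high to be resolved into libraries, so the spread of CRY1 between animals is not known and the difference could not be tested. The size factors bound the reads behind it, at 771 to 3232 in the 4 libraries and 1653 to 4073 in the 7 libraries.

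CRY2, cryptochrome 2, is the paralog of CRY1 with the same inhibiting role, and the authors counted uniquely mapped reads only. Its mean was 74.7 ± 31.2 normalized counts (SD, n = 4) over the 4 libraries and 60.4 over the 7 libraries, a log2 ratio of 0.31. In order of falling size factor (1.56, 1.03, 0.620 and 0.372) the 4 libraries held 149, 96, 18 and 30 reads, or 95.6, 93.5, 29.0 and 80.7 normalized counts. Of the 4 libraries, 3 lay close together above the 7-library mean and the library of size factor 0.620 lay at less than the 7-library mean. The difference between the means, 14.3 normalized counts, was smaller than the SD of the 4 libraries. Without the library of size factor 0.620 the log2 ratio was 0.57. The 7 libraries could not be resolved, so whether the groups overlap is not known.

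NR1D1 encodes REV-ERB alpha, the repressor of the second loop, and of the 4 genes it had the fewest reads. It rested on 10 reads in the 4 libraries and 23 reads in the 7 libraries, which could all be resolved. The 4 libraries held 1, 0, 7 and 2 reads in order of falling size factor, or 0.641, 0, 11.3 and 5.38 normalized counts. The 7 libraries held 3, 0, 2, 6, 2, 8 and 2 reads in order of falling size factor, or 1.73, 0, 1.68, 5.12, 1.81, 7.24 and 2.85 normalized counts. The groups overlapped over most of their range, each having a library with no read. The means were 4.33 ± 5.22 (SD, n = 4) and 2.92 ± 2.46 (SD, n = 7) normalized counts, a log2 ratio of 0.57. No difference was detectable at this depth: an exact two-sided permutation test over the 330 ways to draw 4 of the 11 libraries, on log2(normalized count + 1), gave p = 0.982, and the Benjamini-Hochberg adjusted p over the 3531 rows tested in this way was 1. The direction of the ratio of means rested on 1 library, since without the library of size factor 0.620 the log2 ratio was -0.54. On the scale of the test the difference was only 0.04. It changed sign when any of several libraries, in either group, was left out. Of the 3531 rows, 22.3% (786 rows) had an exact permutation p under 0.05 and none had an adjusted p under 0.05, the smallest adjusted p being 0.115. In mammals NR1D1 overlaps the thyroid hormone receptor gene THRA on the opposite strand, and the sources used here do not say whether strand was used in counting, so reads of the overlap cannot be told apart.

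DBP averaged 18.0 ± 5.12 normalized counts (SD, n = 4) in the 4 libraries and 23.7 in the 7 libraries, a log2 ratio of -0.40. It had 26, 23, 7 and 8 reads in order of falling size factor, or 16.7, 22.4, 11.3 and 21.5 normalized counts. All 4 libraries lay below the 7-library mean, but the highest, 22.4, came within the SD of it. Among the 5487 rows with a 4-library mean of 10 to 100 that could be resolved, the 4 libraries all lay below the 7-library mean in 21.3%, so this separation was common. When 1 of the 4 was dropped at a time, the log2 ratio ran from -0.53 to -0.23. The 7-library mean rested on 117 to 287 reads, and the spread of the 7 libraries is not known.

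**Figure D1:**
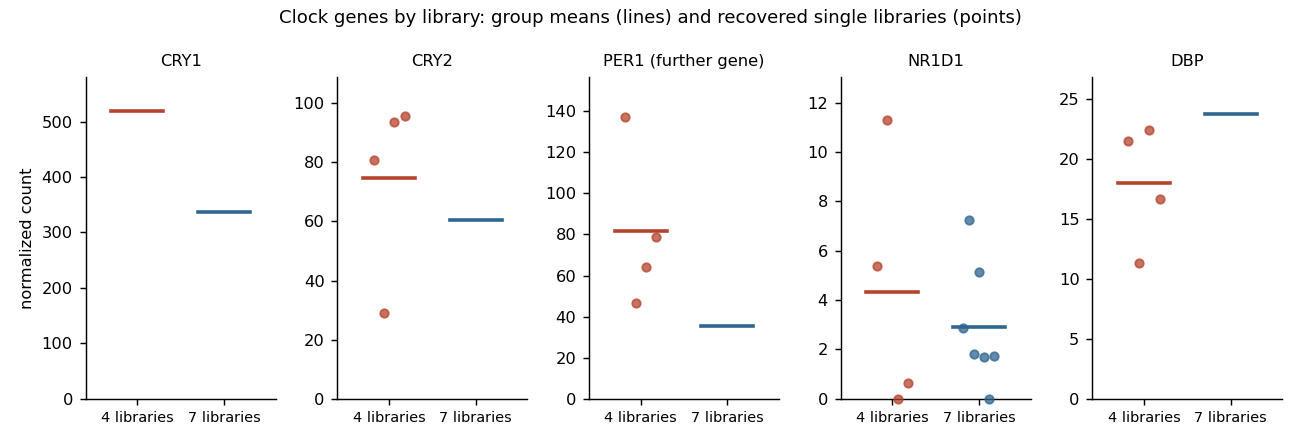
Normalized counts of CRY1, CRY2, PER1, NR1D1 and DBP in the 4-library group (red) and the 7-library group (blue), each panel with its own axis from 0; lines are the deposited group means and points are single libraries where they could be resolved. The 7 libraries are resolved for NR1D1 alone, whose points overlap between the groups, and the 4 libraries of PER1 all lie above its 7-library mean.

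The library of size factor 0.620 had the lowest value of the 4 for CRY2 and DBP and the highest for NR1D1. In the 5487 rows with a 4-library mean of 10 to 100 this library was the lowest of the 4 in 22.7% and the highest in 29.4%. Such positions were thus common among other rows.

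Further genes of the clock pathway were taken by role from a list of 51, of which 35 had a row. The 4-library mean was at least 2-fold higher in 6 of the 35 genes (17.1%, against 23.9% of all rows) and at least 2-fold lower in 5 (14.3%, against 10.4% of all rows), and 24 lay within 2-fold. Where a gene had several rows, the one with the highest overall mean was used, since the sources used here do not say how reads of shared exons were divided. The median log2 ratio of the 35 genes was 0.04. Restricted to the 28 genes with an overall mean of at least 10, 5 were higher (17.9%, against 12.3% of such rows) and 2 were lower (7.14%, against 9.59%).

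Of the 4 further genes listed under repressors, PER1 and BHLHE40 had a row, and both were at least 2-fold higher in the 4-library mean. This was so in 23.9% of all rows and in 12.3% of rows with an overall mean of at least 10. NR1D1 and NFIL3, repressors that are listed elsewhere, lay within 2-fold. PER1 (XM_004376004.1), the period protein that joins the cryptochromes in the repressing complex, had means of 81.8 ± 39.2 (SD, n = 4) and 35.3 normalized counts, a log2 ratio of 1.21. Its 4 libraries held 123, 66, 29 and 51 reads in order of falling size factor, or 78.9, 64.3, 46.7 and 137 normalized counts. All 4 libraries lay above the 7-library mean, which was so in 15.6% of resolved rows with a 4-library mean of 10 to 100. When 1 of the 4 was dropped at a time, the log2 ratio of PER1 stayed between 0.84 and 1.40, and it fell below 1 only without the library of size factor 0.372. BHLHE40 (XM_004368284.1, DEC1), which competes for E-boxes, had means of 1592 and 427 normalized counts, a log2 ratio of 1.90, and its libraries could not be resolved. The PER1 and BHLHE40 ratios thus both exceeded those of the cryptochromes, though none of these differences between genes was tested.

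Among the ROR receptors, RORA (XM_004374786.1), which opposes REV-ERB at the BMAL1 promoter, had means of 321 and 234 normalized counts, a log2 ratio of 0.45. RORB (XM_004383290.1) averaged 25.2 normalized counts in the 4 libraries against 1 read in all 7 libraries together. The 4 libraries, from the largest size factor to the smallest, held 0, 6, 44 and 9 of its reads, so most came from the library of size factor 0.620. Leaving that library out lowered the log2 ratio from 7.69 to 6.36. The ratio was 207-fold, and the 95% Poisson interval of the single read alone allows 37.2- to 8179-fold, counting error only. The exact permutation test of RORB gave p = 0.0242 (adjusted p = 0.167 over the 3531 rows). RORB reached the 10 reads needed for that test only through the 4 libraries, so its p is not taken as support.

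The other D-box factors beside DBP did not move together. NFIL3 (XM_004387975.1), the repressor that competes with DBP for D-boxes, had nearly equal means of 2948 and 2941 normalized counts. HLF (XM_004377906.1), an activator of the DBP family, had means of 62.4 ± 56.0 (SD, n = 4) and 57.4 normalized counts. The libraries of HLF held 13.5, 26.3, 72.5 and 137 normalized counts in order of falling size factor, a spread far wider than the difference between the means. TEF (XM_004373899.1), the third activator, rested on 5 and 18 reads and gave means of 1.05 and 2.43 normalized counts (exact permutation p = 0.218, adjusted p = 0.47). The log2 ratio of TEF was -1.21, and it ran from -2.51 to -0.80 as 1 library of the 11 was dropped at a time, lowest without the library of size factor 1.03 and within 2-fold without those of 0.620, 0.372 or, among the 7, 1.19.

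Enzymes that set the stability of PER and CRY proteins gave values in both directions. BTRC (XM_004370048.1), the F-box protein that marks PER proteins for degradation, had means of 2.75 and 5.71 normalized counts from 13 and 47 reads (exact permutation p = 0.358, adjusted p = 0.61). Its log2 ratio of -1.05 also turned on single libraries: it was -2.42 without the 4-library sample of size factor 1.03, -0.64 without that of 0.620 or of 0.372, -0.58 without the 7-library sample of size factor 1.11, and -0.91 without the one next below it in size factor. The casein kinase 1 family, which phosphorylates PER proteins, was represented by CSNK1A1 and CSNK1E. The CSNK1A1 record with the highest overall mean (XM_004384911.1) had means of 47.3 and 50.7 normalized counts, a log2 ratio of -0.10, whereas a second record (XM_004384908.1) had 64.4 and 37.6, a log2 ratio of 0.78, so the gene has no single direction. CSNK1E (log2 ratio 0.49) rested on 6 and 9 reads (exact permutation p = 0.661, adjusted p = 0.84). The 3 casein kinase 2 subunits all had the lower 4-library mean: CSNK2B (XM_004390749.1), the regulatory subunit, had 10.7 ± 2.11 (SD, n = 4) against 38.3 normalized counts, a log2 ratio of -1.85, and the catalytic subunits CSNK2A1 and CSNK2A2 had log2 ratios of -0.98 and -0.66. The libraries of CSNK2B held 12.8, 7.79, 11.3 and 10.8 normalized counts in order of falling size factor, all far below the 7-library mean. All 4 libraries lay below that mean in 21.3% of resolved rows with a 4-library mean of 10 to 100. Of all rows, 56.4% had the higher 4-library mean.

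Of the modifiers of chromatin and NAD, SIRT1 (XM_004386407.1), an NAD-dependent deacetylase that acts on BMAL1 and PER2, had means of 312 and 75.1 normalized counts, a log2 ratio of 2.06. NAMPT (XM_004382605.1), the clock-controlled enzyme that supplies NAD, had means of 1970 and 1094 normalized counts, a log2 ratio of 0.85. The acetyltransferases EP300 and CREBBP had log2 ratios of -0.29 and -0.78, and HDAC3, the deacetylase that REV-ERB recruits, of -0.01. PARP1 had 2 reads in the 4 libraries and 9 in the 7 libraries and is not described further.

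Of the 5 genes at least 2-fold apart with all 11 libraries resolved (RORB, TEF, BTRC, PARP1 and KLF10), KLF10 (XM_004370716.1), a clock-controlled zinc finger factor, was the one whose groups did not overlap. The 4 libraries held 43.0, 26.3, 37.1 and 29.6 normalized counts in order of falling size factor, and the 7 libraries ran from 0 to 7.24 with a mean of 3.65. The lowest of the 4 exceeded the highest of the 7, as in 3.51% of the 3531 resolved rows. Those rows needed a 7-library mean up to 6 but could have a 4-library mean up to 100. A row as high in the 7 libraries as KLF10 was in the 4 could not enter them. The log2 ratio of KLF10 was 3.22 (exact permutation p = 0.00303, the smallest p that 4 against 7 libraries can give, adjusted p = 0.115 over those rows). KLF9 (XM_004375801.1), its relative, had means of 133 and 32.4 normalized counts, a log2 ratio of 2.04. WDR5 (XM_004388662.1), a partner of PER proteins in chromatin, had 56.3 ± 8.43 (SD, n = 4) against 128 normalized counts, a log2 ratio of -1.19. All 4 of its libraries lay below the 7-library mean, as in 21.3% of resolved rows with a 4-library mean of 10 to 100.

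**Figure D2:**
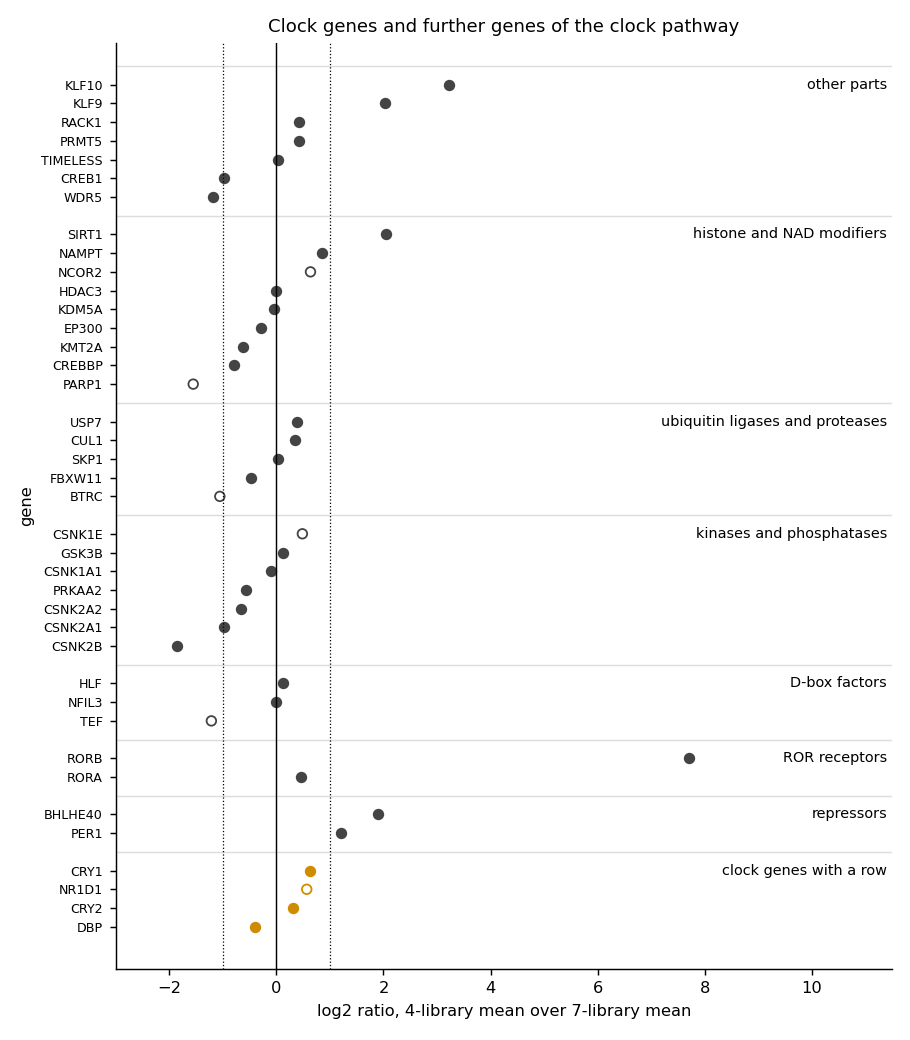
Ratios on the log2 scale (4-library mean divided by 7-library mean) for the 4 clock genes (orange) and 35 further clock pathway genes (grey) by role; dotted lines mark 2-fold, and open circles mark genes with both means under 10. The 4 clock genes lie between the dotted lines, while KLF10, SIRT1, KLF9 and BHLHE40 lie at 1.90 to 3.22 and RORB, with 1 read in the 7 libraries, at 7.69.

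**Figure D3:**
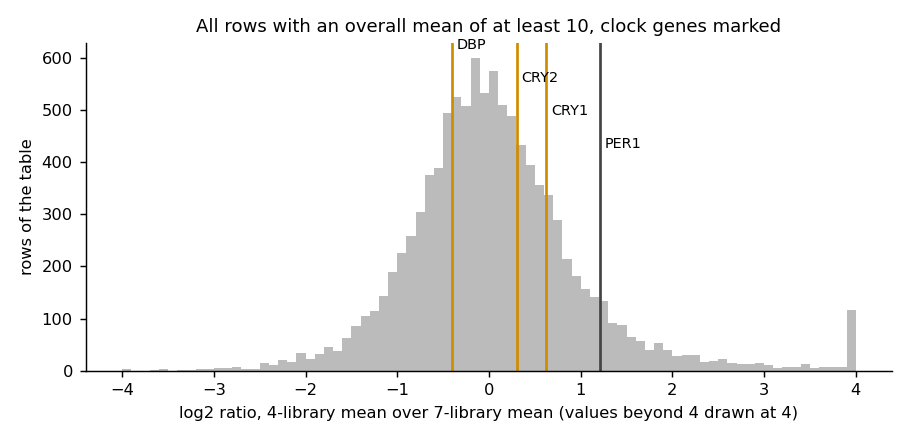
Histogram of the log2 ratio of the 10225 rows with an overall mean of at least 10, with the ratios of DBP, CRY2 and CRY1 (orange lines) and PER1 (grey line); bars count rows in steps of 0.1. DBP, CRY2 and CRY1 lie in the body of the distribution at -0.40, 0.31 and 0.62, and PER1 lies at 1.21.

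Cell type markers differed between the means, with the same doubt as to which mean is red tide. Of 13 neutrophil markers 10 had a row, and 9 of the 10 were at least 2-fold lower in the 4-library mean. Of all rows 10.4% were so, and 9.59% of those with an overall mean of at least 10. The summed means of the 10 were 2877 and 13089 normalized counts. FPR1 was the exception, with a log2 ratio of 0.66. Of 7 platelet markers 5 had a row, and 4 were at least 2-fold higher, with summed means of 15250 and 4419. The matching shares of rows were 23.9% and 12.3%. The marker sums of T cells (4 of 11 genes with a row, 3787 and 3754), B cells (4 of 8, 809 and 853) and monocytes (4 of 8, 2355 and 2719) were closer, and erythroid markers (3 of 7) summed to 186 and 487. Most of the erythroid sum was ALAS2 (168 and 467 normalized counts), while KLF1, on 9 and 13 reads, had the opposite direction (4.23 and 1.59 normalized counts, log2 ratio 1.41). NK cells had 1 marker of 7 with a row, PRF1, at 6.95 and 5.41 normalized counts. No marker with a row had a mean of 0. The part of these shifts in the values of the clock genes was not tested.

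Over the 11 libraries, NR1D1 was most like 2 records without a symbol (XM_004380573.1, Pearson r 0.90, and XM_004372379.1, r 0.87) and TECTA (r 0.87), among 1880 rows with at least 30 reads in all libraries. These are the highest of many correlations between sparse counts that share the same libraries and depths, so they are given as a description.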

How the data were processed

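A ScriptSeq kit removed ribosomal and globin RNA before the buffy coat samples (4 red tide, 7 control) were sequenced. Per the methods, the authors trimmed reads with Cutadapt and mapped them to TriManLat1.0 with Bowtie2. They dropped duplicates, counted unique alignments for each gene sequence and compared the groups with the authors' DESeq run. The signal in the deposited table is the authors' mean of counts divided by size factors, over all libraries and per group; its fold change, log2 fold change, p-value and adjusted p-value columns are the authors' own comparison and were not used. There were 0 columns of single samples, so the planned edgeR test of counts was not possible and the rule laid down for group means was used.

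Records were matched to RefSeq symbols without version number. What 1 read is worth in each library was read from the lowest means, and the reads of single libraries were taken where exactly 1 combination of whole reads gave the deposited mean (10144 of 10159 rows with a 4-library mean up to 100, 4462 of 4505 with a 7-library mean up to 6). The recovery and the permutation test were tested on simulated data. Resolved rows with a 7-library mean up to 6 are weakly expressed genes, so shares over the 3531 tested rows (at least 10 reads) describe such genes. Since 4-library means were resolved up to 100, these rows could have a high mean in the 4 libraries but not in the 7. Shares and adjusted p-values over them are therefore not balanced between the directions. Total counts per library cannot be had from means. The permutation p-values rank the observed difference between the groups among all assignments of 4 of the 11 libraries. They cannot separate exposure from the other differences between the groups of animals. Members and lists were chosen with earlier results of these data known; the text names all members, and of the further list those at least 2-fold apart and 1 or 2 per role; any others were added after their values were seen. A planned gene of that list is not reported here and is left out of its counts, for a reason unrelated to its values. Alternatives concerned the fold threshold, a pseudocount of 1, centring, low means, the scale of the permutation test and leaving out libraries. Analyses used Python 3.11.15, numpy 2.4.6, pandas 2.3.3, SciPy 1.17.1 and matplotlib 3.10.9.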

Additional observations from a re-analysis of the deposited data

Results flagged for a closer look

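In RORB, 1 of the 7 libraries held the only read of that group, so its gap to the others was the whole range (ratio 1). In PARP1, likewise, 1 of the 4 libraries held both reads of that group (ratio 1). Chance flags about 1 in 20 groups, and with 1 or 2 reads such a gap follows from the count alone.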

How the results depend on the processing

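No paired analysis was possible because values are deposited as group means and carry no replicate number. The count of clock genes at least 2-fold apart, 0, became 1 (CRY1) at a threshold of 1.5-fold and stayed 0 at 3-fold, with a pseudocount of 1 and with centring on the median of rows with an overall mean of at least 10 (-0.01); the count of further genes rose from 11 to 18 at 1.5-fold. The share of rows at least 2-fold apart was 34.3% and, at an overall mean of at least 10, 21.9%. With each of the 4 libraries left out, the median log2 ratio of CRY2, NR1D1 and DBP (0.31) ran from -0.23, without the library of size factor 0.620, to 0.27, and that of NR1D1 from -0.54 to 0.98. The log2 difference of NR1D1 behind the permutation test (0.04) ran from -0.58 to 0.63 with each of the 11 libraries left out, with p between 0.467 and 1; on plain normalized counts p was 0.585. With a pseudocount of 1 the log2 ratio was 4.55 for RORB and -0.55 for PARP1, and without 1 of the 4 libraries that of TEF was -2.51. Of 138 alternative values, 124 moved by less than the spread between the 4 libraries, or, for counts and tests, stayed within 1.5 times or on the same side of the threshold. For genes whose 4 libraries could not be resolved, a fixed limit of 1.5-fold took the place of the spread. Of the rest, 7 moved further and 7 changed sign. RORB without the 7-library sample of its 1 read and PARP1 without the library of its 2 reads gave no ratio, and without the 7-library sample of size factor 1.17 that of PARP1 was -0.26. Reads are known for weak means only, so the spread of CRY1 in both groups and of CRY2 and DBP in the 7 libraries cannot be given.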
